A study of Mus musculus with 29 samples.

Results

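Regulatory T cells (Treg) and conventional T cells (Tcon) cultured with lactic acid were compared, in 6 of the 29 RNA sequencing libraries of a study of mouse CD4+ T cells. CD4+ cells from spleens of C57BL/6-Foxp3tm1Flv/J mice, in which a red fluorescent protein (RFP) reports Foxp3, were activated for 72 h with anti-CD3 (1.25 µg/ml) and anti-CD28 (2.5 µg/ml). The medium held 0.5 mM glucose, 50 IU/ml interleukin 2, 3 ng/ml TGF-beta and 10 mM lactic acid. RFP-positive cells (Treg, 3 libraries) were set against RFP-negative cells (Tcon, 3 libraries), with libraries of the same replicate number taken as a pair. In the main fit each replicate number entered as a term shared by all media of its time point. Below, "without pairing" means a fit that dropped these terms for all 29 libraries. The same sort from TGF-beta medium that received no lactic acid (3 Treg and 3 Tcon libraries) served for comparison. The mice of replicate 1 were male and those of replicates 2 and 3 female. Their ages, and how many animals stand behind each replicate, are not stated. The spread between libraries may therefore be technical in part. The p-values rest on a spread estimated from all 29 libraries fitted together, of every time point and medium. They do not measure the spread of the 6 compared libraries alone. Whether Treg and Tcon of a number were sorted from 1 culture is not stated either. The labels describe the starting cells only as purified CD4 T cells, so Foxp3+ cells that were present in the spleen and those induced during culture cannot be told apart within the RFP-positive gate.

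Foxp3 is the transcription factor that defines Treg, and TGF-beta together with interleukin 2 can switch it on in activated CD4+ cells. Foxp3-expressing cells are known to restrain other T cells through inhibitory receptors, consumption of interleukin 2 through CD25 (Il2ra) and suppressive cytokines, and Foxp3 is known to repress effector cytokine genes. Activated CD4+ cells that stay Foxp3-negative can instead take up helper programs and secrete cytokines. Lactic acid accumulates in tumours and inflamed tissue, where glucose can be scarce.

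The 6 libraries held 9754511 to 14132689 gene counts, with 18272 to 18979 genes detected. Tcon replicate 2 had the fewest gene counts, the largest share of reads assigned to no feature (10.4%, against 6.16 to 7.71% in the other 5) and the largest mitochondrial share of counts (1.69%). Levels are given as CPM, counts divided by library sizes that were scaled by the TMM method. The 8 CD4 T cell markers summed to 2972 to 3011 CPM in Treg and 2927 to 3092 CPM in Tcon. Of these, Trac and Cd5 were higher in Treg and Cd3g lower; the Cd3g call was made in every leave-one-out fit and without pairing. The 2 higher became 0 without pairing and without Tcon replicate 1, Tcon replicate 2, Treg replicate 2 or Treg replicate 3, and 1 without Tcon replicate 3. Erythroid markers summed to at most 0.364 CPM. The 13 myeloid markers summed to 36.2 to 44.1 CPM in Treg and 33.5 to 38.4 CPM in Tcon. The 12 B cell markers summed to 260.0 to 300.8 CPM in Treg and 186.4 to 194.0 CPM in Tcon. Nearly all of that sum was the immunoglobulin heavy chain gene Ighm, at 277 ± 21.0 CPM in Treg and 185 ± 3.33 CPM in Tcon (SD, n = 3 each), while Cd79a stayed at or below 0.364 CPM in every library. Of the 4 B cell markers tested, Ighm and Cd79b were higher in Treg and none lower; the 2 became 1 without pairing and without Tcon replicate 1, Tcon replicate 3, Treg replicate 2 or Treg replicate 3. The part of B cells in the results was not tested. The 10 markers of CD8 T and natural killer cells summed to 140.9, 185.8 and 190.2 CPM in Treg and to 170.1, 227.4 and 225.8 CPM in Tcon, lower in Treg in all 3 pairs. Much of that difference was Klrk1, with means of 5.2 CPM in Treg and 27.5 CPM in Tcon. The means of Nkg7 (81.5 and 85.7 CPM) and Eomes (60.6 and 61.7 CPM) were close. In a principal component analysis of the 6 libraries, the first component (42.0% of the variance) set replicate 1 of both populations apart from replicates 2 and 3, and the second (29.6%) separated the Treg libraries from the Tcon libraries.

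Foxp3 was measured at 363, 572 and 467 CPM in Treg, against 49.1, 59.8 and 35.7 CPM in Tcon. The groups did not overlap, and the log2 fold change was 3.27 ± 0.14 (SE). The cells had been sorted on the Foxp3 reporter, so this value describes the gate and is not a finding. Foxp3 transcript was also present in the RFP-negative cells of every pair. In medium without lactic acid both levels were lower (224 ± 75.5 CPM in Treg and 23.4 ± 10.8 CPM in Tcon; SD, n = 3 each), while the log2 fold change between the populations was 3.27.

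Treg and Tcon from lactic acid medium differed in 1832 of 14375 genes tested (12.7%; edgeR quasi-likelihood test, Benjamini-Hochberg adjusted p below 0.05). Of these, 1006 (7.0% of the genes tested) were higher and 826 (5.75%) lower in Treg. Across all genes tested, 9.83% had every Treg library above every Tcon library and 8.63% the opposite, and 27.4% were higher and 24.3% lower in Treg in all 3 pairs. Most differences were small: 145 of the genes higher in Treg and 227 of those lower differed by at least 2-fold. The number rests on how replicate number entered the fit. Without the replicate terms 366 genes passed, all of them among the 1832 and in the same direction. With replicate number as a block within each medium, over the 12 TGF-beta libraries of 72 h, 3279 passed. The 6 compared libraries alone with their block gave 2990. Of the 1832 genes, 705 passed in every one of the 6 fits that left out 1 library. The count was 1058 without Tcon replicate 2 and 1199 without Treg replicate 3. The plot of fold change against level shows that the differences reached further down than up.

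**Figure D1:**
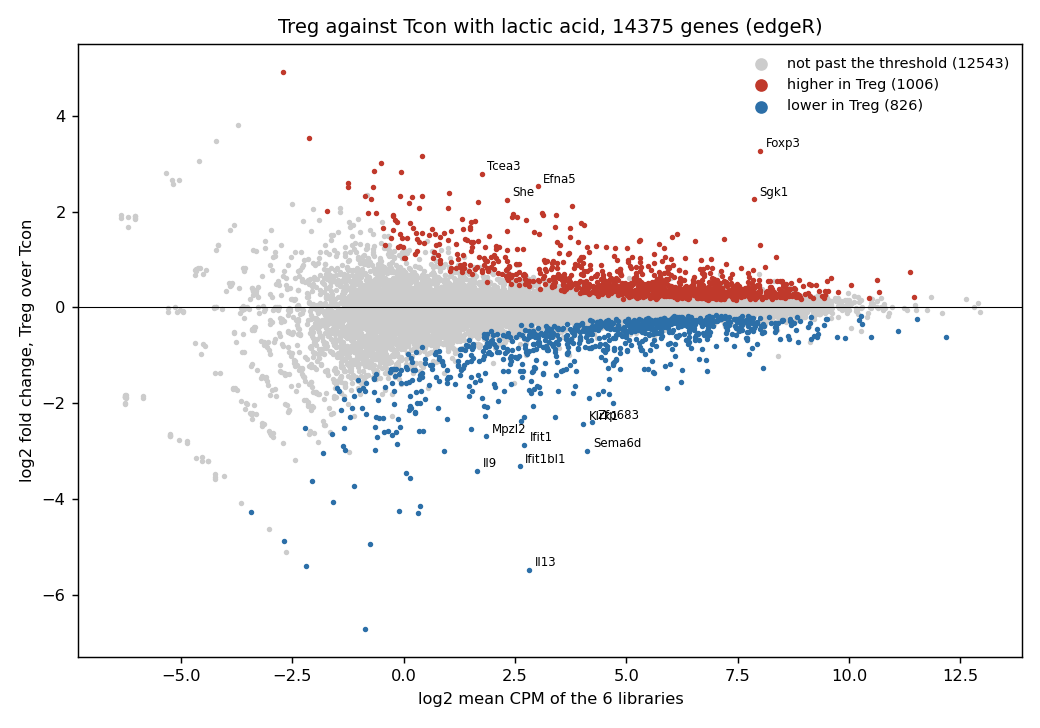
Log2 fold change of Treg over Tcon from lactic acid medium (vertical axis) against the log2 mean CPM of the 6 libraries (horizontal axis), 1 point per gene tested, leaving out 15 genes at 0 in all 6 libraries. Red points (1006) were higher and blue points (826) lower in Treg at an adjusted p below 0.05. The labelled genes are among those named in the text, with Foxp3 at 3.27 and Il13 at -5.48.

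The genes with the largest rise in Treg, after Foxp3, encode a mixture of signalling, transcription and cytoskeletal proteins. Sgk1, a kinase regulated by growth factor and salt signals that phosphorylates Foxo factors, was measured at 161, 445 and 557 CPM in Treg, against 40.1, 75.9 and 119 CPM in Tcon (log2 fold change 2.26 ± 0.21, SE; adjusted p = 9.12e-08). Every Treg library lay above every Tcon library, although both populations of replicate 1 were low. Efna5, a membrane-anchored ligand of Eph receptors, had 7.19, 15.7 and 18.1 CPM in Treg, against 1.36, 3.60 and 2.43 CPM in Tcon (2.52 ± 0.27; adjusted p = 8.7e-07). Tcea3, a transcription elongation factor, had 4.0, 7.08 and 6.55 CPM in Treg, against 0.719, 0.822 and 0.942 CPM in Tcon (2.79 ± 0.41; adjusted p = 9.21e-05). Transcription factors were among these genes as well. Tead1, the DNA-binding partner of the coactivators YAP and TAZ, was measured at 23.5, 22.4 and 27.1 CPM in Treg, against 8.46, 6.47 and 6.36 CPM in Tcon (1.77 ± 0.15; adjusted p = 2.15e-08), with little spread within each group. Sox4, a factor known to respond to TGF-beta in T cells, had 5.72, 12.5 and 9.19 CPM in Treg, against 1.68, 3.39 and 2.35 CPM in Tcon (1.88 ± 0.18; adjusted p = 1.67e-07). The remaining genes of the leading 15 were Cpe, a prohormone-processing carboxypeptidase (2.21), Pld4, an exonuclease of the endolysosome (2.12), Car5b, a mitochondrial carbonic anhydrase (1.96), and the actin-binding protein genes Pdlim4 and Pfn2 (1.94 and 1.71). Prok1, which encodes the secreted ligand prokineticin 1 (1.93), the SH2 adaptor gene She (2.25), Pyroxd2 (1.95) and Plekhd1 (1.82) completed them.

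Genes with the largest fall in Treg were led by cytokines. Il13, a type 2 cytokine gene, was measured at 0.327, 0.295 and 0.273 CPM in Treg, against 8.14, 14.3 and 19.1 CPM in Tcon, the largest difference among the genes named by this rule (log2 fold change -5.48 ± 0.42, SE; adjusted p = 5.83e-09). No Treg library came near the lowest Tcon library. Il9, a growth factor for mast cells, had 0.408, 0.443 and 0.728 CPM in Treg, against 2.48, 5.55 and 9.18 CPM in Tcon (-3.42 ± 0.35; adjusted p = 4.51e-07). Il10, a suppressive cytokine that Treg and effector cells can both make, was lower in Treg as well, at 1.96, 1.40 and 2.73 CPM in Treg, against 8.94, 10.7 and 11.6 CPM in Tcon (-2.38 ± 0.28; adjusted p = 2.49e-06). Surface molecules formed a second group. Sema6d, a transmembrane semaphorin, had 2.37, 2.95 and 6.83 CPM in Treg, against 26.9, 29.5 and 36.1 CPM in Tcon (-2.99 ± 0.21; adjusted p = 1.67e-09). Tnfsf8, which encodes the CD30 ligand, had 14.0, 9.74 and 8.64 CPM in Treg, against 43.0, 42.1 and 38.3 CPM in Tcon (-2.0 ± 0.24; adjusted p = 3.82e-06). Mpzl2, an adhesion molecule of the immunoglobulin superfamily (-2.69), Tnfsf13b, the B cell survival factor BAFF (-2.08), and Asb2, a substrate receptor of a ubiquitin ligase (-2.29), also belonged to the leading 15 falls. The groups did not overlap in any of these genes, as the rule that named them required.

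**Figure D2:**
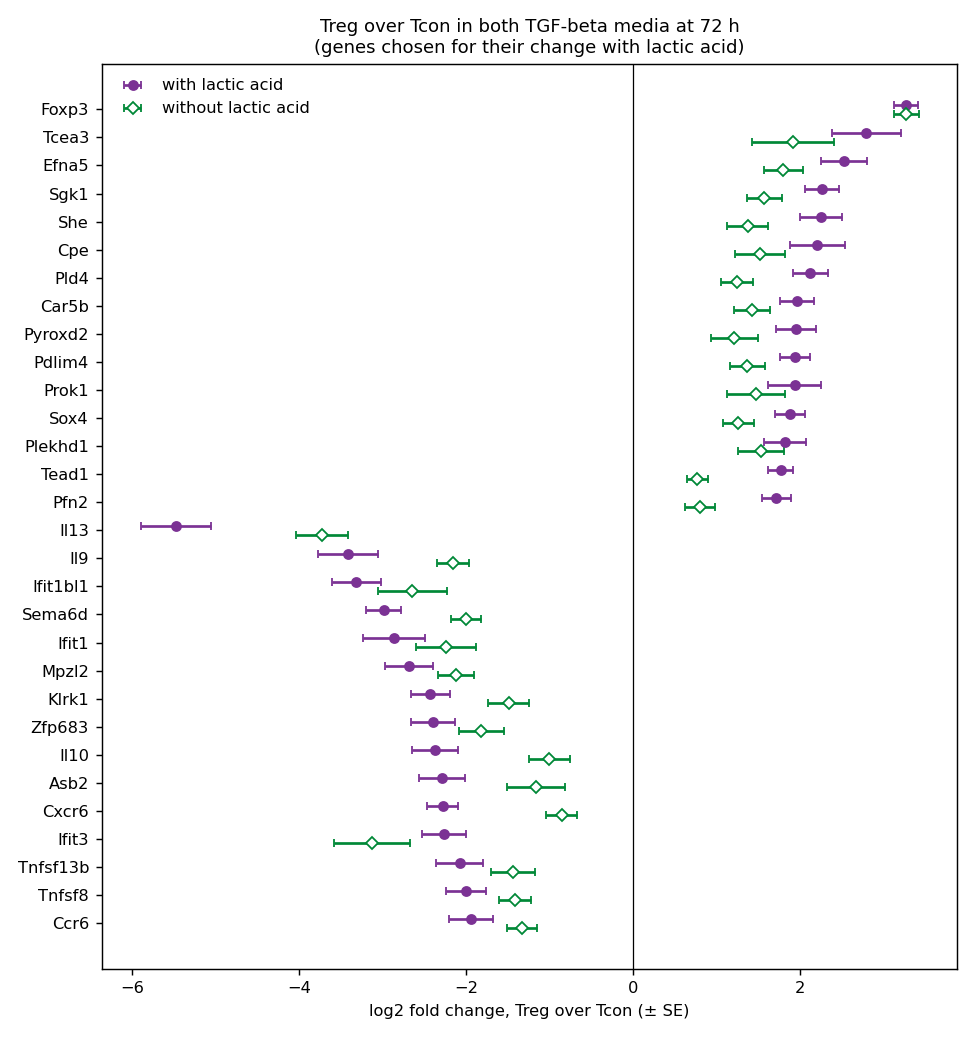
Log2 fold change of Treg over Tcon (horizontal axis, ± SE) with lactic acid (filled circles) and without it (open diamonds) for the leading 15 rises (upper) and 15 falls (lower) in lactic acid medium. Every gene had the same direction in both media, Foxp3 was at 3.27 and 3.27, and Ifit3 was the gene with the larger fall without lactic acid (-2.27 and -3.13).

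The genes commonly higher in Treg than in conventional CD4 cells split in both directions. Of 40 tested, 9 were higher in Treg (22.5%, against 7.0% of all genes) and 8 lower (20.0%, against 5.75%), with a median log2 fold change of 0.07 beside 0.01 for all genes. In all 6 fits that left out 1 library, 6 of the higher and all 8 of the lower members passed, and without pairing 6 and 3 did. The higher members include Foxp3, whose reporter the sort used, in each of these counts. Among the higher members, Il2ra, the alpha chain of the interleukin 2 receptor, had 2583, 3799 and 3653 CPM in Treg, against 1869, 1879 and 2168 CPM in Tcon (0.73 ± 0.11; adjusted p = 5.84e-05). Gpr83, a Treg-associated G protein-coupled receptor, had 67.2, 132 and 116 CPM in Treg, against 29.3, 37.9 and 38.2 CPM in Tcon (1.53 ± 0.15; adjusted p = 3.01e-07). Izumo1r, which encodes folate receptor 4, had 342, 356 and 368 CPM in Treg, against 210.4, 178 and 206 CPM in Tcon (0.84 ± 0.09; adjusted p = 6.93e-07). These 3 genes did not overlap between the groups. Itgb8, an integrin chain that can release active TGF-beta, was higher at a low level (2.53, 1.40 and 1.18 CPM in Treg, against 0.479, 0.719 and 0.314 CPM in Tcon; 1.77 ± 0.35, adjusted p = 0.00126). Nrp1, a semaphorin receptor and marker of thymus-derived Treg in mice, was higher at 0.76 ± 0.17 (adjusted p = 0.00444), a call lost without Treg replicate 2 (0.0536).

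Several genes known from Treg did not pass. Ikzf2, which encodes Helios, had 60.2, 53.2 and 48.7 CPM in Treg, against 71.9, 61.3 and 48.5 CPM in Tcon (log2 fold change -0.15 ± 0.11, SE; adjusted p = 0.409), and its libraries overlapped. Ikzf4, which encodes the related factor Eos, had 139.6, 146 and 157 CPM in Treg, against 135, 144 and 135 CPM in Tcon (0.10 ± 0.16; adjusted p = 0.754). Ctla4, the inhibitory receptor that binds CD80 and CD86, was at 275, 279 and 284 CPM in Treg, against 253, 247 and 209 CPM in Tcon (0.25 ± 0.15; adjusted p = 0.299), higher in all 3 pairs without passing the test. Tnfrsf18 and Tnfrsf4, which encode the receptors GITR and OX40, had log2 fold changes of 0.11 ± 0.12 and -0.06 ± 0.12. Lrrc32, the surface anchor of latent TGF-beta, was at 112, 216 and 184 CPM in Treg, against 72.2, 122 and 116 CPM in Tcon (0.70 ± 0.24; adjusted p = 0.0578). Ccr8, Entpd1 and Nt5e, a chemokine receptor and the ectoenzymes CD39 and CD73, had log2 fold changes of 0.03, 0.03 and 0.28 and did not pass. A p that misses the threshold does not show that levels were equal, and the SEs above give the precision.

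**Figure D3:**
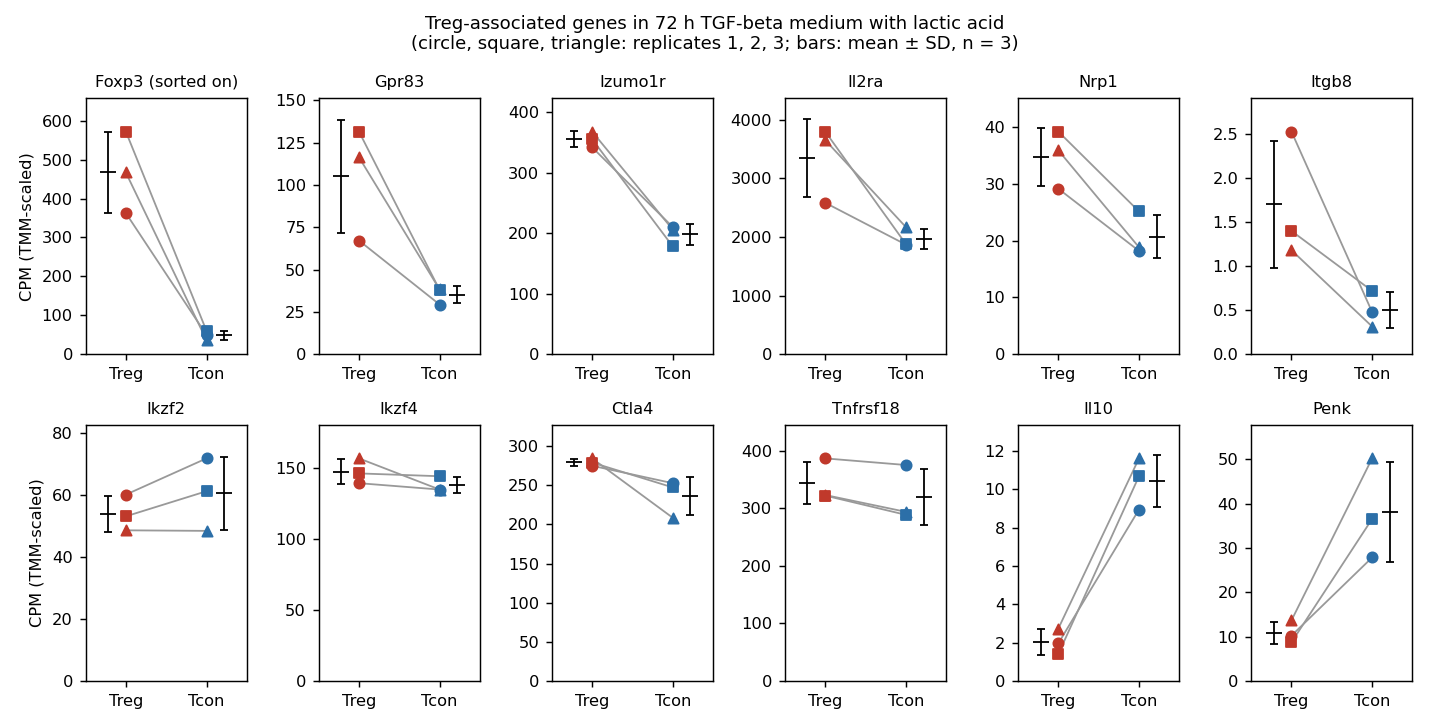
Levels in CPM (vertical axes, each starting at 0) of 12 Treg-associated genes in the 3 Treg libraries (red, left) and the 3 Tcon libraries (blue, right) from lactic acid medium, with grey lines joining libraries of the same replicate number and black bars for the mean ± SD. Il2ra, Gpr83, Izumo1r and Nrp1 lie higher in Treg in every pair, Ikzf2 and Tnfrsf18 lie close together, and Il10 and Penk lie lower in Treg.

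The lower members of the Treg list included genes of suppressive function. Of 22 tested genes for Treg suppressive mediators and ectoenzymes, 10 were lower in Treg (45.5%, against 5.75% of all genes) and 2 higher (9.09%, near the 7.0% of all genes), and 7 of the 10 and both of the 2 passed whichever library was left out (3 of the 10 passed without pairing). The list shares members with the Treg list, among them Il10. Penk, which encodes the opioid precursor proenkephalin, had 10.2, 8.71 and 13.7 CPM in Treg, against 27.9, 36.6 and 50.2 CPM in Tcon (-1.81 ± 0.13; adjusted p = 1.67e-09). Fgl2, a secreted fibrinogen-like protein, had 3.43, 2.51 and 4.0 CPM in Treg, against 7.66, 12.1 and 12.6 CPM in Tcon (-1.72 ± 0.25; adjusted p = 3.94e-05). Gzmb, the cytotoxic protease granzyme B, had 144, 138 and 159.9 CPM in Treg, against 263, 288 and 308 CPM in Tcon (-0.96 ± 0.22; adjusted p = 0.0049, or 0.094 without pairing). The 2 higher members were Tgfb1, the gene of TGF-beta 1 itself, at 0.29 ± 0.06 (adjusted p = 0.00292), and Lgals1, which encodes galectin 1, at 0.49 ± 0.10 (adjusted p = 0.00257); both were named after their values were seen. Genes commonly lower in Treg went mainly down: 8 of 19 were lower (42.1%; 6 in all leave-one-out fits, 3 without pairing), led by Il4, Ifng and Csf2, which the next results describe. Pde3b, a cyclic nucleotide phosphodiesterase that Foxp3 is known to repress, had 36.4, 34.1 and 39.7 CPM in Treg, against 67.2, 59.0 and 67.7 CPM in Tcon (-0.81 ± 0.11; adjusted p = 1.79e-05). The 3 higher members of that list were Dgka, Igfbp4 and Actn1, and each of these calls was lost on leaving out at least 1 library.

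Cytokine and chemokine genes were lower in Treg as a group. Of 34 tested, 15 were lower (44.1%, against 5.75% of all genes) and 2, Osm and Tgfb1, higher, with a median log2 fold change of -1.45 (or -1.21 with genes at 0 in Treg set to a floor of 3 counts over the group, or left out where both groups were at or under it). In all 6 fits with 1 library left out, 13 of the 15 passed, and 8 did without pairing. The type 2 cytokines Il4 and Il5 were at or near the limit of detection in Treg. Il4 had 0.0817, 0.221 and 0.0910 CPM in Treg, against 1.36, 2.26 and 3.69 CPM in Tcon (-4.14 ± 0.70; adjusted p = 0.000265, or 0.0506 without pairing), and Il5, the eosinophil growth factor, had 0.327, 0.148 and 0 CPM in Treg, against 2.40, 2.36 and 1.33 CPM in Tcon (-3.56 ± 0.78; adjusted p = 0.00329). The Th17 cytokine gene Il17f had 3 counts in the Treg libraries together, against 65 in the Tcon libraries, a ratio of 0.0432 (exact 95% interval for counting error 0.00867 to 0.132). Ifng, the Th1 cytokine, had 21.0, 23.8 and 41.4 CPM in Treg, against 66.7, 81.0 and 126 CPM in Tcon (-1.69 ± 0.29; adjusted p = 0.000275, or 0.0678 without pairing). Csf2, which encodes GM-CSF, had 2.45, 1.99 and 1.55 CPM in Treg, against 7.03, 4.72 and 6.75 CPM in Tcon (-1.59 ± 0.22; adjusted p = 2.28e-05). Il24, a cytokine of the IL-10 family named after its value was seen, was at -1.90 (adjusted p = 0.000273, or 0.083 without pairing). Il17a, the partner of Il17f, was at -3.45 ± 0.82 (adjusted p = 0.00626), a call lost without Tcon replicate 1 (0.0536), Treg replicate 3 (0.0578) or pairing (0.0514). Chemokines moved with them: Ccl3 had 64.0, 32.8 and 35.0 CPM in Treg, against 120.5, 91.7 and 109 CPM in Tcon (-1.31 ± 0.17; adjusted p = 9.12e-06), and Ccl20, the ligand of Ccr6, was at -1.74 ± 0.25 (adjusted p = 3.61e-05). The T cell growth factor Il2, known to be repressed by Foxp3, had 1.23, 0.590 and 0.182 CPM in Treg, against 3.43, 1.64 and 1.65 CPM in Tcon, lower in all 3 pairs, but did not pass (-1.69 ± 0.81; adjusted p = 0.185).

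The helper program lists held more lower than higher members. They share genes with the cytokine list above, among them Ifng, Il4 and Il17a, so their counts are not independent of it. Of 16 tested Th1 genes, 8 were lower (50.0%, against 5.75% of all genes) and 2 higher (12.5%, against 7.0%) in Treg. Of the 8 lower, 6 passed in all leave-one-out fits (4 without pairing). Tbx21, which encodes the Th1 factor T-bet, had 47.7, 36.8 and 44.0 CPM in Treg, against 65.0, 68.7 and 68.0 CPM in Tcon (-0.65 ± 0.12; adjusted p = 0.000584), and Il12rb2, the signalling chain of the interleukin 12 receptor, had 76.6, 59.3 and 53.1 CPM in Treg, against 217, 143 and 121 CPM in Tcon (-1.33 ± 0.11; adjusted p = 1.72e-08). Fasl, the death ligand, had 4.25, 4.65 and 4.73 CPM in Treg, against 10.5, 9.65 and 12.8 CPM in Tcon (-1.26 ± 0.19; adjusted p = 9.04e-05). The 7 lower members of the 18 Th2 and growth cytokine genes (38.9%) were all cytokines or a chemokine, and none was higher, whereas Gata3, the Th2 transcription factor, had 57.3, 58.1 and 62.3 CPM in Treg, against 45.5, 47.7 and 49.8 CPM in Tcon (0.31 ± 0.17; adjusted p = 0.255). Of 17 Th17 genes, 8 were lower (47.1%; 6 in all leave-one-out fits, 3 without pairing) and 2 higher. Ccr6, a chemokine receptor of Th17 cells, had 3.27, 0.959 and 1.27 CPM in Treg, against 10.1, 4.21 and 6.36 CPM in Tcon (-1.95 ± 0.26; adjusted p = 1.73e-05, or 0.104 without pairing). Ahr, a ligand-activated factor that can support Th17 and Treg programs, was lower (-0.87 ± 0.12; adjusted p = 2.29e-05) and was named after its value was seen. In the T follicular helper list, 4 of 13 were lower (30.8%, against 5.75% of all genes) and 2 higher (15.4%, against 7.0%). Bcl6, its transcription factor, did not pass (0.57 ± 0.25, adjusted p = 0.136). None of those 6 calls but Il4 and Pdcd1 held in every leave-one-out fit, and none was made without pairing.

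Single genes among the leading falls are also known from cytotoxic or tissue-resident lymphocytes; they were not tested as a list. Klrk1, which encodes the activating receptor NKG2D, had 4.33, 4.28 and 6.92 CPM in Treg, against 28, 23.5 and 31.0 CPM in Tcon (log2 fold change -2.43 ± 0.24, SE; adjusted p = 1.97e-07). Zfp683, which encodes Hobit, a factor of resident lymphocytes, had 5.56, 3.25 and 9.83 CPM in Treg, against 28.2, 25.4 and 40.5 CPM in Tcon (-2.40 ± 0.26; adjusted p = 9.75e-07). Cxcr6, the receptor of the chemokine Cxcl16, had 3.02, 2.88 and 5.0 CPM in Treg, against 12.6, 19.2 and 20.8 CPM in Tcon (-2.28 ± 0.19; adjusted p = 1.63e-08). Gzma, the protease granzyme A, ranged widely within the groups, at 0.245, 2.66 and 6.28 CPM in Treg, against 2.31, 14.1 and 19.0 CPM in Tcon, and was lower in each pair (-2.06 ± 0.28; adjusted p = 1.79e-05, or 0.349 without pairing). Of 6 tested markers of CD8 T and natural killer cells, Klrk1 itself and Cd8a were lower and none higher; the 2 became 1 without pairing and in each leave-one-out fit except that without Tcon replicate 3. Cd8a had 2.62, 10.2 and 13.3 CPM in Treg, against 5.11, 14.4 and 16.1 CPM in Tcon (-0.53 ± 0.18; adjusted p = 0.0493), and Klrd1, which encodes CD94, had 9.40, 6.42 and 9.83 CPM in Treg, against 15.2, 8.94 and 11.1 CPM in Tcon (-0.46 ± 0.18; adjusted p = 0.102). The 2 markers highest in these cells, Nkg7 and Eomes, were at -0.07 and 0.01 and did not pass, and Klrb1c, Ncr1, Klra8 and Klre1 were too low to test. The part of such cells in the differences was not tested. In bulk RNA, fewer cells of a type and less RNA per cell cannot be told apart.

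**Figure D4:**
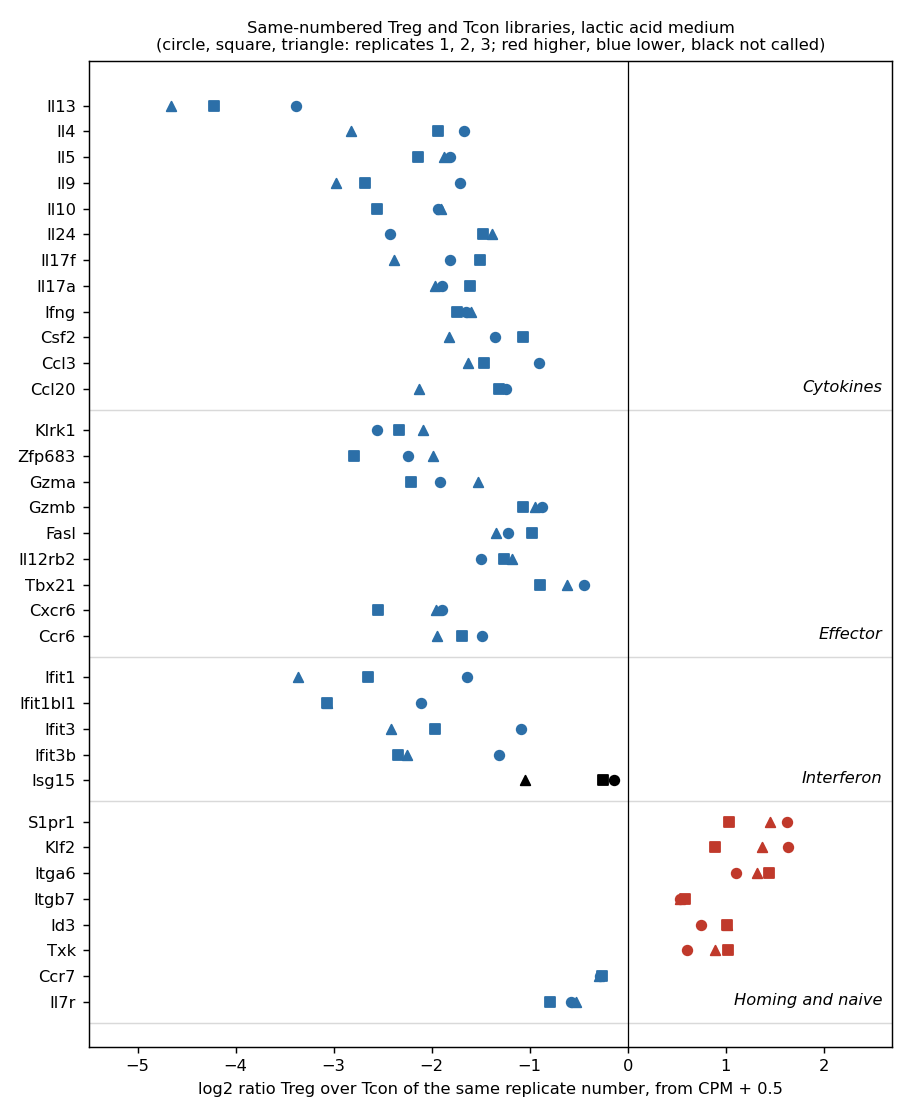
Log2 ratio of Treg over Tcon (horizontal axis, from CPM plus 0.5) in each same-numbered pair of lactic acid libraries for cytokine, effector, interferon-induced and homing or naive genes. Red and blue mark genes higher and lower in Treg at an adjusted p below 0.05 and black genes that did not pass. The cytokine and effector genes lie left of 0 in all 3 pairs, and S1pr1 and Klf2 lie right of it.

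Interferon-induced genes of the Ifit family were lower in Treg. Of 32 tested interferon-induced genes, 9 were lower (28.1%, against 5.75% of all genes) and 1, Gbp5, higher. Of the 9, 6 passed in all leave-one-out fits and 3 without pairing. Ifit1, whose product binds viral RNA lacking the host cap, had 2.04, 1.92 and 0.728 CPM in Treg, against 7.42, 14.7 and 12.2 CPM in Tcon (-2.86 ± 0.37; adjusted p = 9.46e-06). Ifit1bl1, a mouse paralog outside the list, had 0.817, 1.62 and 0.819 CPM in Treg, against 5.19, 17.4 and 10.6 CPM in Tcon (-3.32 ± 0.29; adjusted p = 3.62e-08). Ifit3b had 0.245, 0.590 and 0.364 CPM in Treg, against 1.36, 5.03 and 3.61 CPM in Tcon (-3.00 ± 0.29; adjusted p = 4.96e-07), and Ifit3 was lower in each pair, at 0.899, 1.99 and 0.728 CPM in Treg, against 2.48, 9.24 and 6.04 CPM in Tcon (-2.27 ± 0.27; adjusted p = 2.83e-06, or 0.107 without pairing). These genes are close paralogs, so the division of reads among them is uncertain. Other interferon-induced genes did not pass, among them Isg15, a ubiquitin-like modifier, at 2.7, 3.02 and 0.728 CPM in Treg, against 3.03, 3.70 and 2.04 CPM in Tcon (-0.40 ± 0.34; adjusted p = 0.494), which was named after its value was seen.

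The promoters of the 4 Ifit genes that led these falls are shown because the genes moved together and are known to respond to interferon through a shared element. The sequences are RefSeq promoters of the mouse assembly GRCm38.p6, from 250 bases before to 50 after the start site, 5′ to 3′ on the gene's strand. They lie on chromosome 19 (Ifit1 chr19:34640639-34640938, plus strand; Ifit1bl1 chr19:34601919-34602218, minus strand, 1 of 2 promoters of this gene in the table; Ifit3 chr19:34583279-34583578 and Ifit3b chr19:34607707-34608006, plus strand). Capitals mark the letters GAAA, any 2 bases and GAAA again, a core of the interferon-stimulated response element, which was searched on both strands.
Ifit1: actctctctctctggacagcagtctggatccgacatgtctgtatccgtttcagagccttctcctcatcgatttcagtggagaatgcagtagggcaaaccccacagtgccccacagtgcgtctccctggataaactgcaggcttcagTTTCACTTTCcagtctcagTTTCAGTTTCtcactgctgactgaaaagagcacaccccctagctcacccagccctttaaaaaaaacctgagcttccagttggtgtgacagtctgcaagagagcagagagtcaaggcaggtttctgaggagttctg
Ifit1bl1: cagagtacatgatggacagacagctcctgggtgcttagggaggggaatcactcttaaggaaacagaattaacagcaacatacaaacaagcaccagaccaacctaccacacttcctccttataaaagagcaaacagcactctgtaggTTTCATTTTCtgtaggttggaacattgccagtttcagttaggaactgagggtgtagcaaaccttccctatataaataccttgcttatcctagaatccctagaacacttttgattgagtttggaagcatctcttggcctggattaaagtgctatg
Ifit3: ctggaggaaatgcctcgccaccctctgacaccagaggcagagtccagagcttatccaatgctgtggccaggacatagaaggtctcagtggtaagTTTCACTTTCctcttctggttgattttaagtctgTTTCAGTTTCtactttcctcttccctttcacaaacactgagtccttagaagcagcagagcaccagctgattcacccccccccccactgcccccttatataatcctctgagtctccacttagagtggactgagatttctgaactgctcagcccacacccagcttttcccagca
Ifit3b: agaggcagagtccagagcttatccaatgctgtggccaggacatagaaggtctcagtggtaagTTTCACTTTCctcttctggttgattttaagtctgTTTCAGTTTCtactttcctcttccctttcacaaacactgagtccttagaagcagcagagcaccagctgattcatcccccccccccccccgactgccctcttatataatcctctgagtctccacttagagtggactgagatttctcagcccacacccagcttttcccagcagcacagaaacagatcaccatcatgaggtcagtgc
Ifit1, Ifit3 and Ifit3b hold 2 matches and Ifit1bl1 holds 1, all read on the minus strand relative to the gene. The promoters of Ifit3 and Ifit3b share an unbroken run of 169 bases. The same letters occur in 1131 of 32851 promoters of that length (3.44%). Among interferon-induced genes tested, 18 of the 24 with a promoter in the table hold a match, including 4 of the 5 lower in Treg and also genes that did not pass, such as Isg15. A match describes the sequence and is not evidence of binding.

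Homing receptors and naive T cell genes were mixed, with S1pr1 and Klf2 among the genes higher in Treg. Of 29 tested genes of naive and quiescent T cells, 12 were higher (41.4%, against 7.0% of all genes) and 6 lower (20.7%). In all leave-one-out fits 8 of the 12 and 2 of the 6 passed, and without pairing 2 and 0 did. S1pr1, the receptor that guides exit of T cells from lymph nodes, had 71.9, 54.8 and 42.4 CPM in Treg, against 22.9, 26.6 and 15.2 CPM in Tcon (1.39 ± 0.14; adjusted p = 3.31e-07). Klf2, a transcription factor known to control it, had 102, 70.7 and 52.9 CPM in Treg, against 32.6, 37.8 and 20.2 CPM in Tcon (1.32 ± 0.14; adjusted p = 7.3e-07). In both genes the libraries of a group spread widely while each pair was higher in Treg, and without pairing the adjusted p-values were 0.0704 and 0.119. Id3, an inhibitor of E proteins, was higher with little spread (39.5, 43.7 and 45.9 CPM in Treg, against 23.3, 21.5 and 22.5 CPM in Tcon; 0.96 ± 0.20, adjusted p = 0.00255). Naive-cell genes lower in Treg included Ccr7, the receptor for lymph node chemokines (394, 388 and 344 CPM in Treg, against 478, 464 and 421 CPM in Tcon; -0.28 ± 0.06, adjusted p = 0.00546, or 0.228 without pairing). Il7r, the interleukin 7 receptor that Treg are known to keep low, was at -0.63 ± 0.15 (adjusted p = 0.00566), a call lost without Treg replicate 2 (0.0613) and without pairing (0.412). Tcf7, which encodes TCF-1, did not pass (-0.26 ± 0.15; adjusted p = 0.278). Over 20 chemokine and homing receptors, 5 were higher (25%, becoming 3 without Treg replicate 1) and 4 lower (20.0%), of which 0 and 1 passed without pairing. Among 16 integrin and cadherin genes, 3 were higher (18.8%, against 7.0% of all genes) and 4 lower (25%, against 5.75%). All 3 higher calls and 3 of the 4 lower held in every leave-one-out fit, and 2 and 1 passed without pairing. Itga6, the alpha 6 chain of laminin receptors, had 297, 443 and 357 CPM in Treg, against 138, 162 and 143 CPM in Tcon (1.29 ± 0.11; adjusted p = 3.62e-08). Cdh1, which encodes E-cadherin, had 10.6, 33.8 and 37.9 CPM in Treg, against 28.3, 88.8 and 90.5 CPM in Tcon, lower in each pair (-1.34 ± 0.16; adjusted p = 4.62e-06); it passed neither without pairing (0.161) nor by DESeq2.

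Inhibitory receptors were more often lower than higher in Treg. Of 18 tested, 9 were lower (50.0%, against 5.75% of all genes) and 2 higher (11.1%, against 7.0%); 4 of the 9 passed in all leave-one-out fits and 1 without pairing, the 9 became 5 without Tcon replicate 2, and neither of the 2 higher members held in all of these fits. Lilrb4a, an inhibitory receptor of the immunoglobulin family, had 3.92, 3.02 and 4.09 CPM in Treg, against 8.62, 9.76 and 9.18 CPM in Tcon (-1.32 ± 0.21; adjusted p = 0.000138). Lag3, which binds MHC class II, had 38.9, 22.4 and 26.7 CPM in Treg, against 57.9, 48.5 and 38.1 CPM in Tcon (-0.74 ± 0.14; adjusted p = 0.000631, or 0.346 without pairing). Pdcd1, which encodes PD-1, had 54.1, 32.5 and 37.1 CPM in Treg, against 66.5, 52.9 and 56.0 CPM in Tcon (-0.53 ± 0.12; adjusted p = 0.00294, or 0.496 without pairing). Costimulatory and TNF family genes held 2 higher (8.0%, near the 7.0% of all genes) and 5 lower (20.0%, against 5.75%) of 25. Without pairing, 0 and 2 passed. Tnfsf10, which encodes the death ligand TRAIL, was higher in each pair (132, 199.8 and 189 CPM in Treg, against 80.2, 122 and 129 CPM in Tcon; 0.66 ± 0.10, adjusted p = 0.000133, or 0.138 without pairing). The 5 lower members became 8 without Tcon replicate 1 and 3 without Tcon replicate 2, Treg replicate 1 or Treg replicate 3.

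In the interleukin 2 and STAT5 pathway, receptor and target genes went both ways. Beside Il2ra, Il2rb, a signalling chain of the receptor, did not pass and had close levels (1170.1, 1302 and 1324 CPM in Treg, against 1222, 1199 and 1328 CPM in Tcon; 0.01 ± 0.07, adjusted p = 0.93). The kinases Pim1 and Pim2, both known targets of STAT5, moved in opposite directions: Pim1 had 416, 478 and 426 CPM in Treg, against 206, 230.4 and 201 CPM in Tcon (1.05 ± 0.07; adjusted p = 1.71e-09), whereas Pim2 had 102, 57.4 and 54.3 CPM in Treg, against 195, 138 and 117 CPM in Tcon (-1.09 ± 0.10; adjusted p = 4.76e-08). The groups did not overlap for either. Over the list, 4 of 21 were higher and 4 lower (19.0% each, against 7.0% and 5.75% of all genes). The 4 higher became 2 when Tcon replicate 2 was left out, and 2 of each direction passed without pairing. For TGF-beta signalling, 6 of 29 were higher (20.7%) and 4 lower (13.8%), with 2 lower without Tcon replicate 2, and 3 and 1 without pairing. Tgfbr3, the coreceptor betaglycan, had 59.3, 58.7 and 73.8 CPM in Treg, against 122, 126 and 153 CPM in Tcon (-1.07 ± 0.08; adjusted p = 5.34e-09). The receptor kinase gene Tgfbr1 was higher (0.64 ± 0.10; adjusted p = 0.000127), while the signal transducer genes Smad2, Smad3 and Smad4 did not pass, with log2 fold changes of 0.06, 0.26 and 0.14. These 4 genes were named after their values were seen.

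Transcription factors reported to act with or upstream of Foxp3 were more often higher in Treg: 10 of 31 (32.3%, against 7.0% of all genes) were higher and 3 lower. Of the 10, 7 passed in all leave-one-out fits and 2 without pairing. Myb, a factor of dividing progenitors and effector Treg, had 171, 236 and 235 CPM in Treg, against 74.6, 83.6 and 77.8 CPM in Tcon (1.44 ± 0.15; adjusted p = 3.44e-07). Gata1, best known from red cell development, had 29.6, 47.7 and 34.6 CPM in Treg, against 19.4, 21.7 and 21.4 CPM in Tcon (0.79 ± 0.17; adjusted p = 0.00199, or 0.267 without pairing), whereas the erythroid marker sum stayed at or below 0.364 CPM. The 3 lower members were Gfi1, Nfatc1 and Tet2, and none of these calls held in all leave-one-out fits. Among 30 genes of the T cell receptor complex and its proximal kinases, 4 were higher (13.3%, against 7.0% of all genes) and 7 lower (23.3%, against 5.75%). Of the 7, 4 passed in all leave-one-out fits and 3 without pairing. The 4 higher became 2 without Tcon replicate 2 or Treg replicate 1 and 1 without pairing. Cblb, a ubiquitin ligase that restrains receptor signals, had 207, 169.8 and 165 CPM in Treg, against 344, 286 and 292 CPM in Tcon (-0.77 ± 0.06; adjusted p = 5.83e-09). Themis, a signalling regulator of thymocytes and T cells, had 109, 87.4 and 82.8 CPM in Treg, against 162, 127 and 129 CPM in Tcon (-0.58 ± 0.09; adjusted p = 0.000172). The adhesion receptor gene Cd2 was higher (401, 448 and 435 CPM in Treg, against 281, 290.0 and 297 CPM in Tcon; 0.56 ± 0.09, adjusted p = 0.000117). Immediate early and activation genes were lower in 9 of 29 (31.0%; 6 in all leave-one-out fits, 3 without pairing) and higher in 1. In the DNA methylation list, 2 of 12 were higher and 2 lower (16.7% each). The 2 higher became 1 in each leave-one-out fit except that without Tcon replicate 3 and 0 without pairing, and the 2 lower became 1 in each except that without Tcon replicate 1 and 1 without pairing. Tet1, a demethylating dioxygenase, was lower (14.8, 11.5 and 9.55 CPM in Treg, against 23.9, 18.3 and 15.8 CPM in Tcon; -0.69 ± 0.14, adjusted p = 0.00158) and Mbd2, a reader of methylated DNA, higher (187, 234 and 223 CPM in Treg, against 146, 155 and 171 CPM in Tcon; 0.44 ± 0.08, adjusted p = 0.000795, or 0.0952 without pairing).

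Cell cycle genes were higher in Treg by small margins, and their count moved with single libraries. Of 24 tested G2 and M phase genes, 11 were higher (45.8%, against 7.0% of all genes) and none lower, with a median log2 fold change of 0.32. The 11 became 1 without Tcon replicate 2, the library with the fewest gene counts, and 4 without Treg replicate 1, and none passed without pairing. The gene that passed in every leave-one-out fit was Cdc25b, a phosphatase that activates cyclin-dependent kinases, with 182, 202 and 202 CPM in Treg, against 109, 121 and 151 CPM in Tcon (0.62 ± 0.11; adjusted p = 0.000538; 0.0727 without pairing). Of 30 genes of G1 and DNA replication, 10 were higher (33.3%) and 1 lower; the 10 became 6 without Tcon replicate 1 and 5 without Tcon replicate 2 or Treg replicate 2, and 1 passed without pairing. The G1 regulators Cdk6 and Cdkn2c passed in all leave-one-out fits and without pairing. Cdk6, a partner kinase of D-type cyclins, had 323, 372 and 342 CPM in Treg, against 520.0, 599 and 604 CPM in Tcon (-0.73 ± 0.09; adjusted p = 5.54e-06), and Cdkn2c, which encodes the Cdk4 and Cdk6 inhibitor p18, had 45.4, 57.5 and 52.7 CPM in Treg, against 25, 29.1 and 31.5 CPM in Tcon (0.85 ± 0.14; adjusted p = 0.000204).

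Metabolic lists differed in how many members passed. Of 20 genes for lactate, pyruvate and proton handling, 6 were lower (30.0%, against 5.75% of all genes; 2 in all leave-one-out fits and 2 without pairing) and 1, Car5b, higher. Car2, a cytosolic carbonic anhydrase, had 7.27, 7.97 and 6.10 CPM in Treg, against 12.8, 14.3 and 16.1 CPM in Tcon (-1.01 ± 0.19; adjusted p = 0.000861), and Car5b, its mitochondrial relative, had 11.8, 13.7 and 15.5 CPM in Treg, against 3.27, 2.98 and 4.16 CPM in Tcon (1.96 ± 0.20; adjusted p = 4.51e-07). Gpr65, a proton-sensing receptor, had 37.2, 42.9 and 41.4 CPM in Treg, against 58.9, 57.0 and 53.7 CPM in Tcon (-0.47 ± 0.10; adjusted p = 0.00307). The lactate transporter gene Slc16a1 was lower (-0.23 ± 0.06, adjusted p = 0.014, or 0.393 without pairing). The lactate dehydrogenase gene Ldha did not pass (0.06 ± 0.10, adjusted p = 0.764). Both genes were named after their values were seen. In glycolysis 5 of 21 were lower (23.8%, against 5.75% of all genes) and 1 higher, none without pairing. The 5 became 2 without Tcon replicate 1 or Treg replicate 2 and 3 without Tcon replicate 2, Treg replicate 1 or Treg replicate 3. Slc2a3, a glucose transporter, was lower in each pair (725, 324 and 262 CPM in Treg, against 1193, 540.0 and 368 CPM in Tcon; -0.66 ± 0.13, adjusted p = 0.00159, or 0.573 without pairing). In fatty acid oxidation, 3 of 22 were higher (13.6%, against 7.0% of all genes) and 1 lower (4.55%, against 5.75%). All 3 higher calls and 0 of the lower held in every leave-one-out fit, and 2 and 0 passed without pairing. Cpt2, the inner membrane carnitine transferase, had 21.6, 32.5 and 28.7 CPM in Treg, against 17.4, 14.8 and 16.2 CPM in Tcon (0.76 ± 0.15; adjusted p = 0.000865), and Acsl1, which activates long-chain fatty acids, had 18.8, 27.9 and 25.8 CPM in Treg, against 13.0, 15.9 and 16.6 CPM in Tcon (0.66 ± 0.12; adjusted p = 0.00034).

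Transcripts encoded by the mitochondrial genome were lower in Treg. All 7 tested passed, while the other 6 of the 13 are listed at 0 in all libraries. Their sum was 9481, 7669 and 8312 CPM in Treg, against 13669, 15790 and 9836 CPM in Tcon, so that the Tcon libraries spread more than the Treg libraries. Tcon replicate 2, the highest of these sums, is also the library with the fewest gene counts and the largest share of reads in no feature. The calls rested on single libraries: the 7 became 1 without Tcon replicate 2 or Treg replicate 2, 3 without Tcon replicate 1 and 4 without Treg replicate 1. The gene that passed in all of these fits and also without pairing was mt-Nd6, a complex I subunit, with 30.9, 26.1 and 29.9 CPM in Treg, against 47.1, 71.2 and 52.7 CPM in Tcon (-0.96 ± 0.19; adjusted p = 0.00153). Without lactic acid the sum was 10451, 12462 and 6104 CPM in Treg, against 8560, 7765 and 8144 CPM in Tcon, and none of the 7 genes passed. Nuclear genes of the respiratory chain held 1 of 34 higher (2.94%, against 7.0% of all genes) and none lower. The pyruvate dehydrogenase and citrate cycle list held 3 of 32 higher (9.38%) and 1 lower (3.12%, against 5.75% of all genes). None of these 5 calls was made without pairing, and the 3 of the citrate cycle list became 6 without Tcon replicate 1 and 1 without Tcon replicate 2.

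Stress-related and biosynthetic lists ranged between no calls and shares above those of all genes. No gene passed among 25 for sterol and fatty acid synthesis or among 12 heat shock chaperones, by edgeR or by DESeq2. In each of these 2 lists 1 gene in each direction had an unadjusted p under 0.05. Of 23 genes of the amino acid response driven by ATF4, 5 were lower (21.7%, against 5.75% of all genes) and none higher. This count was 16 without Treg replicate 1, 2 without Tcon replicate 1 and 3 without Treg replicate 2 or 3, and 2 passed without pairing. Those 2 were Atf3, a stress-induced transcription factor, with 43.5, 22.2 and 25.7 CPM in Treg, against 84.4, 52.3 and 60.0 CPM in Tcon (-1.11 ± 0.22; adjusted p = 0.00126), and Stc2, a secreted glycoprotein, with 27.5, 10.8 and 14.1 CPM in Treg, against 50.7, 28.6 and 31.5 CPM in Tcon (-1.09 ± 0.16; adjusted p = 5.79e-05). Both populations of replicate 1 were high in both genes. In the unfolded protein response 2 of 20 were higher (10.0%, against 7.0% of all genes). Among them was Xbp1, its transcription factor, with 394, 522 and 562 CPM in Treg, against 322, 329.6 and 379.6 CPM in Tcon. Its log2 fold change was 0.51 ± 0.12 (adjusted p = 0.00542, or 0.095 without pairing). Lysosomal genes held 6 of 25 higher (24.0%, against 7.0% of all genes) and 1 lower; the 6 became 2 without Tcon replicate 2, Treg replicate 2 or Treg replicate 3, and 1 without pairing. Ctsz, the protease cathepsin Z, had 95, 124 and 118 CPM in Treg, against 71.6, 70.8 and 73.5 CPM in Tcon (0.64 ± 0.11; adjusted p = 0.000483). Counts were small in further lists, whose shares are set against 7.0% higher and 5.75% lower of all genes. The hypoxia list held 2 of 19 lower (10.5%) and the Bcl-2 family 1 of 15 lower (6.67%). NF-kappaB held 1 of 18 in each direction (5.56%), and the Gimap GTPases 1 of 8 in each direction (12.5%). MHC class I held 2 higher (12.5%) and 1 lower (6.25%) of 16. Myc and ribosome biogenesis held 2 of 24 in each direction (8.33%). Of the Ikaros and forkhead factors, 3 of 15 were higher (20.0%, Foxp3 included). Among these calls, those of Bcl2a1d, Nfkb1, Gimap5 and Foxp3 held in all leave-one-out fits. In the lists with 0 calls in a direction, at most 1 member had an unadjusted p under 0.05 in that direction, and DESeq2 called 0.

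**Figure D5:**
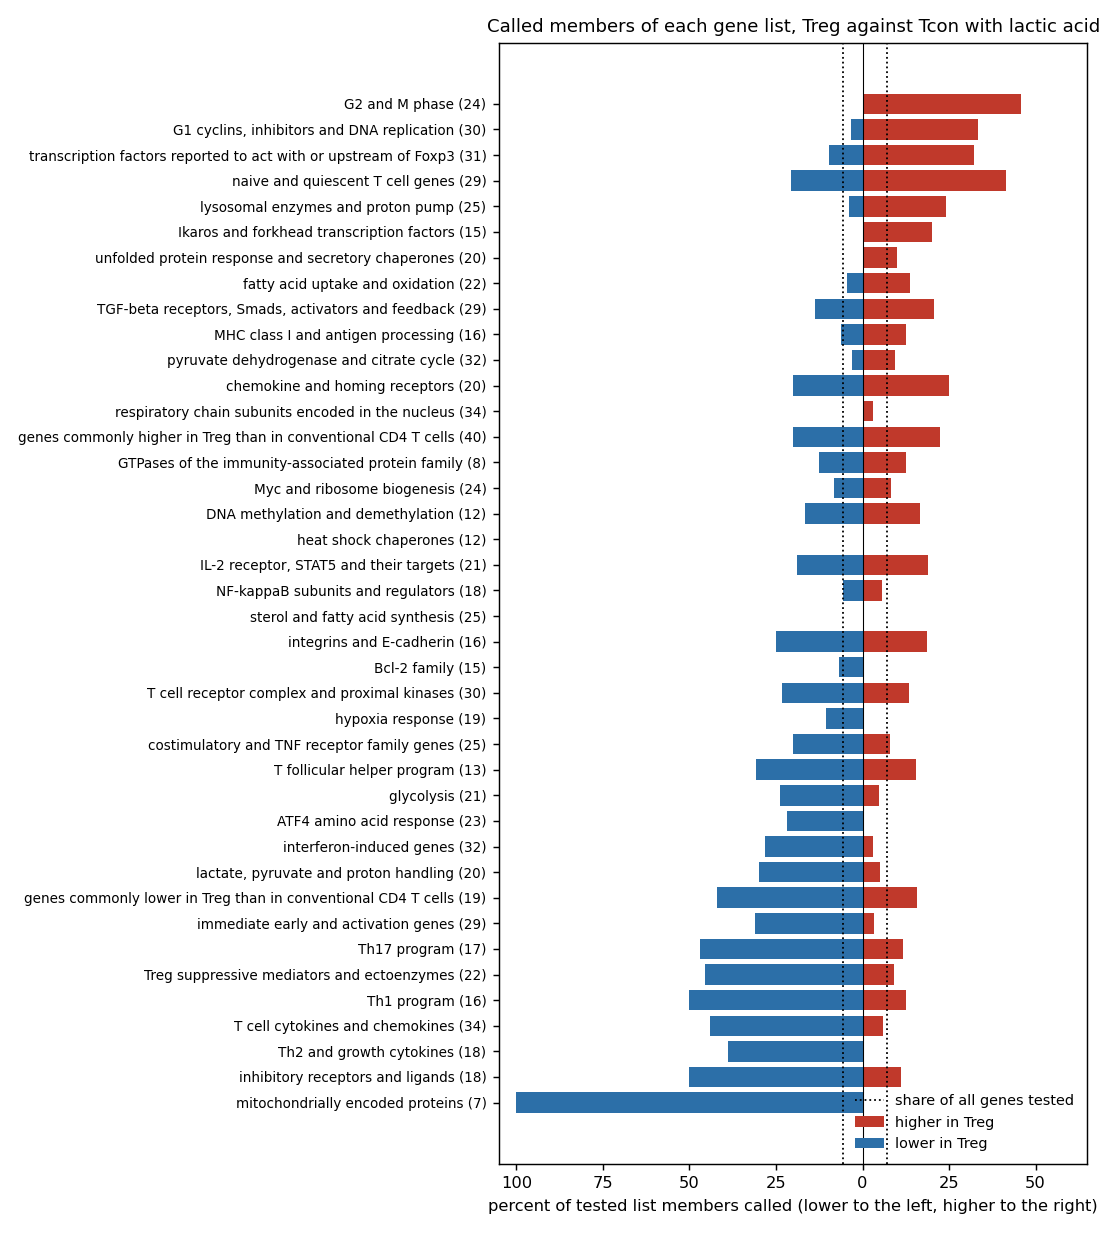
Percent of the tested members of each gene list (horizontal axis) that were higher (red, to the right) or lower (blue, to the left) in Treg from lactic acid medium, with the number of members tested in parentheses. Dotted lines mark the shares of all genes tested, 7.0% higher and 5.75% lower. Mitochondrially encoded genes reach furthest to the left, followed by inhibitory receptors and the Th1 program (50.0% each), and the longest bar to the right is that of G2 and M phase genes (45.8%).

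The same comparison in medium without lactic acid gave fewer calls. There 422 genes (2.94% of the genes tested) passed, 207 higher (1.44%) and 215 lower (1.5%) in Treg, and 31 without pairing. The count ranged between 199, without Tcon replicate 2 of that medium, and 453 when 1 library was left out, and was 223 without Treg replicate 2, 236 without Tcon replicate 3, 254 without Treg replicate 3 and 259 without Tcon replicate 1. The 2 comparisons share no library, and whether same-numbered libraries of both media share mice is not given. Calls in the same direction in both numbered 341, of which 167 were higher and 174 lower, which is 18.6% of the calls with lactic acid and 80.8% of those without. No gene was called in opposite directions. Of the 1832 genes called with lactic acid, 1690 had the same direction without it and 1750 a larger absolute log2 fold change with it, with medians of 0.48 with and 0.24 without. Since the genes were chosen by their call with lactic acid, a smaller value in the other medium is built into the choice and is no test.

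Set side by side, the lists gave fewer calls without lactic acid as well, against the lower shares of all genes just given. Of 34 cytokine and chemokine genes, 15 were lower in Treg with lactic acid and 7 without, with medians of -1.45 and -0.38. The Treg list held 9 higher and 8 lower members with lactic acid, and 9 and 4 without. Lower genes of the Th1 program numbered 8 with lactic acid and 1 without, and those of the inhibitory receptors 9 and 2. Interferon-induced genes were closer, with 9 lower with lactic acid and 6 without. Higher members numbered 12 and 5 for naive-cell genes, 10 and 1 for Foxp3-associated factors, and 11 and 1 for G2 and M phase genes. The differences between these counts were not tested.

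The test of the difference itself, the fold change of Treg over Tcon with lactic acid minus that without, called 0 genes by edgeR, with 1081 at an unadjusted p under 0.05 and a lowest adjusted p of 0.216. DESeq2 called 2, and without a filter on low counts 197 passed. The smallest p-values belonged to Cxcr6 (-1.42 ± 0.27, SE; unadjusted p = 1.79e-05), Tead1 (1.00 ± 0.20; 3.61e-05), Gpm6b, a membrane proteolipid (-1.12 ± 0.22; 4.5e-05), Ppm1l, a protein phosphatase (0.89 ± 0.18; 7.44e-05), and Tle1, a corepressor (0.79 ± 0.17; 8.91e-05). Cxcr6 had 4.71, 4.13 and 8.16 CPM in Treg, against 8.05, 10.6 and 11.5 CPM in Tcon without lactic acid, where the groups lay closer than the values given above. The count depends on the libraries and the block used: with the 12 TGF-beta libraries of 72 h alone and replicate number within medium as the block, 158 genes passed, 53 with a larger and 105 with a smaller value in lactic acid medium. In that fit some effector genes passed, with differences of -0.87 ± 0.10 for Gzmb (adjusted p = 0.000204), -0.64 ± 0.08 for Il12rb2 (0.000753) and -0.81 ± 0.12 for Ifng (0.0021) on the log2 scale. Others did not pass, among them Fasl (adjusted p = 0.0528), Tbx21 (0.0566), Il9 (0.06), Il13 (0.0615), Csf2 (0.123), Il17f (0.152) and Il4 (0.842). The adhesion and homing genes Cdh1 and Cxcr6 moved the same way (-0.87 ± 0.10, adjusted p = 0.000204, and -1.45 ± 0.24, 0.00869), as did Il10 (-1.37 ± 0.29; 0.033). Sgk1 and Myb were further above Tcon with lactic acid (0.66 ± 0.11, adjusted p = 0.00914, and 0.57 ± 0.11, 0.0183). Foxp3 did not pass in either fit (-0.003 ± 0.18 and -0.02 ± 0.15).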

How the data were processed

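Gene counts of 29 libraries were deposited by the authors as whole-number read counts per Ensembl gene, with no normalization. Per the submitters' processing notes, reads were handled with STAR 2.7.3a, HTSeq 0.12.4 and DESeq2 1.30.1 on GRCm39; per the labels' protocols, the libraries were stranded mRNA libraries read as single ends. No source used here gives the strand setting or the annotation release, so reads of overlapping or near-identical genes may be divided uncertainly. Summary entries were left out: in the 6 libraries, reads of low alignment quality were 14.7 to 15.9%, reads in no feature 6.16 to 10.4% and ambiguous reads 1.03 to 1.07% of all entries. Of 55414 gene IDs, 52081 were paired with a symbol through GENCODE M21. Gene levels are CPM after TMM scaling.

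The 29 libraries were fitted together with edgeR 4.0.16 in R 4.3.3 (quasi-likelihood test, group plus replicate number within time point as 6 blocks, 15 residual degrees of freedom) after a filter that required 10 counts in as many libraries as the smallest group and 15 in total. P-values were adjusted by Benjamini-Hochberg over 14375 genes and called below 0.05. An SE is the absolute log2 fold change divided by the square root of F. Libraries were paired by the replicate number in the labels. Deviations of same-numbered Treg and Tcon libraries from their group means correlated at 0.646, 0.322 and 0.468 with lactic acid. Without it the values were 0.772, 0.488 and 0.586. Different numbers gave at most 0.25 and 0.31 in these media. Over autosomal genes with lactic acid, same numbers gave 0.603, 0.286 and 0.437, against at most 0.213 for different numbers. These values cannot tell shared mice or cultures from other shared features of a replicate number, such as sex. Precision is limited by 3 libraries a group and 9754511 to 14132689 gene counts each. The pipeline was tested on simulated counts, drawn from the fitted model with the same block. That test therefore does not bear on the choice of block. Alternatives were a fit without the block, a block by replicate number within medium over 12 libraries, the compared libraries alone, DESeq2 1.42.0, RLE scaling, no filter and leaving out 1 library or pair; a fit of the 72 h libraries was added after seeing the data.

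Genes named were the leading 15 rises and 15 falls among called protein-coding genes. These needed at least 5 CPM on average in the higher group and no overlap between groups. Up to 4 called members of each list (2 where none was called) were added, with the 5 genes of smallest p for the difference between media. A panel of Treg and helper genes completed the rule. Cell type markers and list members given by name alone stand outside it. Where values of any other gene outside it are given, the text says so. The comparison and the lists were chosen with earlier results of these data known. Promoter sequences are from RefSeq, GRCm38.p6.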

Additional observations from a re-analysis of the deposited data

Results flagged for a closer look

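In 3 of the 168 genes named, every pair moved one way with lactic acid and the opposite way without it. The other genes tested were not searched for this. Gimap5, a GTPase known to sustain lymphocyte survival, was lower in Treg in all 3 lactic acid pairs (log2 fold change -0.366, adjusted p = 0.0013) and higher in all 3 pairs without lactic acid (0.08, adjusted p = 0.731). The test of this difference gave an unadjusted p of 0.000407 and did not pass adjustment over all genes (0.361). Tle1 was higher in Treg with lactic acid (0.672, adjusted p = 0.000584) and lower without it (-0.12, adjusted p = 0.701), with an unadjusted p of 8.91e-05 and an adjusted p of 0.256 for the difference. It had been named for its small p in that test, so its reversal is tied to how it was picked. Cd83, a surface protein of activated lymphocytes, was at 0.126 with lactic acid (adjusted p = 0.635) and at -0.16 without it (adjusted p = 0.535), and its difference did not pass (unadjusted p = 0.129). With 168 genes named and 3 pairs in each medium, opposite sets of pairs can arise by chance, and how many would was not tested.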

How the results depend on the processing

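The fit without the replicate block called 366 genes with lactic acid, 31 without it and 0 for the difference between media. The replicate block set within each medium over 12 libraries called 3279, 1395 and 158 genes, and the 6 compared libraries alone with their block called 2990 and, in the other medium, 1413, with 1 for the difference. DESeq2 called 1637 genes with lactic acid and 2 for the difference. Without the filter, 2096 genes were called with lactic acid, 832 without it and 197 for the difference. The 72 h libraries alone, a fit chosen after seeing the data, called 1150, 201 and 2. Leaving out 1 library gave 1058 to 1616 genes with lactic acid, 199 to 453 without it and 0 to 3 for the difference, the 3 without Tcon replicate 1 of lactic acid medium. Leaving out 1 pair gave 849 to 1396, 112 to 303 and 0 to 11, the 11 without replicate 1. Of the 1832 genes, 1796 were also called with the block within medium and 1564 by DESeq2. The causes were not tested. Of 145 named genes called, 73 lost their call without the block, 26 in the 72 h libraries alone, 6 by DESeq2, 4 with RLE scaling and 4 without the filter, and none changed direction in any of these. Reversals were confined to 6 genes that did not pass: Il2rb (-0.00158 with the block within medium, -0.00484 in the compared libraries alone, and -0.066 to 0.0738 with a library or pair left out), Ikzf4 (-0.0064 to 0.241), Tnfrsf18 (-0.0647 to 0.325), Tnfrsf4 (-0.213 to 0.180), Entpd1 (-0.0839 to 0.0850) and Ccr8 (-0.00901 to 0.0982), the last 5 only with a library or pair left out. At this depth, genes at a few counts a library, such as Il17f, Il4 and Il5, carry wide SEs.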

Other observations

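Genes ranked just below the leading 15 in each direction were examined as well, and those named here were chosen after their values were seen. Tlr1, a receptor for bacterial lipopeptides, had 52.2, 47.2 and 38.0 CPM in Treg, against 19.5, 20.3 and 17.9 CPM in Tcon (log2 fold change 1.24 ± 0.10, SE; adjusted p = 2.15e-08 by edgeR), and the difference without lactic acid was 1.21 ± 0.12. Itih5, which encodes a secreted hyaluronan-binding protein, had 144, 146 and 119 CPM in Treg, against 68.5, 41.5 and 43.0 CPM in Tcon (1.38 ± 0.22; adjusted p = 0.000162). Atp1b1, a subunit of the sodium and potassium pump, had 104, 76.4 and 60.5 CPM in Treg, against 45.3, 35.1 and 22.5 CPM in Tcon (1.25 ± 0.08; adjusted p = 6.86e-10). In all 3 genes every Treg library lay above every Tcon library.

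Lower in Treg were Jaml, an adhesion receptor of T cells and neutrophils, with 17.1, 8.26 and 6.28 CPM in Treg, against 40.3, 36.4 and 26.0 CPM in Tcon (-1.74 ± 0.16; adjusted p = 6.39e-08), and Unc5b, a netrin receptor, with 3.10, 1.40 and 1.46 CPM in Treg, against 8.70, 4.01 and 6.12 CPM in Tcon (-1.66 ± 0.25; adjusted p = 7.14e-05). Evl, an actin regulator of the Ena/VASP family, had 55.0, 37.0 and 24.3 CPM in Treg, against 133, 112 and 89.1 CPM in Tcon (-1.56 ± 0.16; adjusted p = 4.67e-07), and Crabp2, a retinoic acid carrier, had 2.78, 2.29 and 2.73 CPM in Treg, against 8.62, 8.63 and 6.83 CPM in Tcon (-1.60 ± 0.24; adjusted p = 5.57e-05). These genes too showed no overlap between the groups, and each passed without pairing, as did the 3 higher ones.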
